A study of Homo sapiens with 12 samples.

Results

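H3K27ac, the acetylation of histone H3 at lysine 27 that marks active promoters and enhancers, was examined at 10 genes of the ERK output. They are the PEA3 group genes ETV1, ETV4 and ETV5, the ETS genes ETS1, ETS2 and ELK3, the EGR genes EGR1, EGR2 and EGR3, and the immediate early gene IER3, out of 20046 protein-coding genes of GENCODE on hg38. The genes were chosen by name, and their peaks were those within 1 kb of any annotated transcript start (the promoter) or within 50 kb of one (the neighborhood). HCT116, an established colorectal cancer cell line, was profiled by CUT&RUN, in which an antibody tethers a nuclease that releases the marked chromatin for sequencing. The 6 H3K27ac libraries came from untreated cells, cells given the MEK1 inhibitor cobimetinib at 1 μM for 24 hours, and cells given the cytokine TNFα at 100 ng/mL for 24 hours, with 2 replicates each. All cells shared the same line, serum-containing medium and antibody, and no vehicle control is labelled. A further 6 libraries made with a nonspecific IgG are not used here, and the values carry no control signal.

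ERK is the last kinase of the MAPK cascade, downstream of MEK, and it phosphorylates ETS family factors of the ternary complex group that sit with SRF on CArG boxes upstream of immediate early genes. EGR1, EGR2 and EGR3 are zinc finger factors induced in this way within minutes of a stimulus, and IER3 is an immediate early gene that also responds to NF-κB. ETV1, ETV4 and ETV5 are activators whose transcription follows ERK activity over hours, ETS1 and ETS2 are direct ERK substrates that cooperate with AP1, and ELK3 is a ternary complex factor that represses its targets until ERK phosphorylates it. AP1, the FOS and JUN dimer, is activated both by ERK and by TNFα.

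The following sequence is shown because EGR1 had the strongest promoter peak of the 10 genes averaged over the 6 libraries, and because its promoter carries the class of element through which ERK is known to act. It is the 250 bases before the EGR1 start in RefSeq (GRCh38.p14, chr5:138465229-138465478, plus strand), printed 5′ to 3′, and lies inside the EGR1 promoter region described later. Capitals mark CArG boxes, which are CC and GG around a short run of A and T.
EGR1: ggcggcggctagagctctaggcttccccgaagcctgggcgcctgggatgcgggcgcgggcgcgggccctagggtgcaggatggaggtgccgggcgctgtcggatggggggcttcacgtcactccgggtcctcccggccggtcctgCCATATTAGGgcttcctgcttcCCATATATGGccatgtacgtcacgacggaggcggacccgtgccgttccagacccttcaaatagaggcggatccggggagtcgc
The boxes start 105 and 83 bases before the start, and the whole EGR1 promoter region of 1680 bp holds 5 of them. RefSeq promoters were matched for 5 of the 10 genes (ETV1, ETS2, ELK3, EGR1 and EGR2). The missing entries are ETV4, ETV5, ETS1, EGR3 and IER3. On both strands, 5 words were searched, which were CCGGAAGT for ETS, TGANTCA for AP1, TGACGTCA for CRE, GCGTGGGCG for EGR and the CArG box, and EGR1 was the 1 promoter of the 5 that held any of them. Among 15345 promoters of the same length, 1.15% held a CArG box, 5.19% the ETS word, 5.02% the AP1 word, 2.36% the CRE word and 0.997% the EGR word. The EGR2 sequence searched lies before the upstream start at chr10:62819167, and within 1 kb of that start and its neighbor 1 library alone had a peak. The EGR2 peak of all 6 libraries is at the MANE start farther downstream, and its region, chr10:62816079-62817639, holds 2 CArG boxes over its whole length. The ETV1 and ETS2 sequences searched also lie before starts upstream of the MANE start, which is at chr7:13989666 and chr21:38805929.

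A second set of sequences gives 1 AP1 word from each of 4 regions, chosen because they hold such a word. They are among the 6 regions near these genes that were farthest above cobimetinib with TNFα. Of the other 2, an IER3 region (chr6:30749146-30750667) also holds AP1 words and an ELK3 region (chr12:96218922-96220543) holds none. The ETS2 regions hold 2 words each, of which 1 is printed. A word was present somewhere in 21 of the 35 regions tested near these genes. Shares over all regions were counted for the central 500 bp only and are given later. Each sequence shown is 31 bases of the plus strand of hg38, with an AP1 word (TGANTCA, where N is any base) in capitals.
ETS1 start region, chr11:128522877-128522907: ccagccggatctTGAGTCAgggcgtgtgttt
ELK3 intron, chr12:96196928-96196958: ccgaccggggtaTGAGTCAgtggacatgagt
ETS2 upstream, chr21:38773525-38773555: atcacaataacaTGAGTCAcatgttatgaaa
ETS2 upstream, chr21:38780520-38780550: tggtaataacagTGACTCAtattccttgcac
A match describes the letters only. No binding data were used here.

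The lists held 69813 to 124771 peaks, and read depth is unknown from them. The score of a peak rises with depth, so a peak was described by its rank within its own list, with rank 1 the strongest and tied scores at their mean rank. Untreated replicate 2, whose peak names say that it was merged after resequencing, stood apart from the rest. The median width of its 20000 strongest peaks was 380 bp against 922 to 1265.5 bp in the other 5 libraries, and it had such a peak at the promoters of 6520 genes against 8948 to 10341. Results that rest on the untreated pair are therefore also given without it where that matters. Among 10 markers of colon epithelium, 3 to 7 per library had a promoter peak among the 20000 strongest, with KRT8 and CLDN4 in all 6 libraries and CDX1, VIL1 and CDH17 in none. Of 6 blood markers none had one in any library, of 4 endothelial markers 1 had one in cobimetinib replicate 2, and of 6 fibroblast markers COL1A1 alone had one, in all 6 libraries.

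At promoters the 10 genes spread over nearly the whole range of ranks. EGR1 was the 1 gene whose promoter peak was among the 20000 strongest in all 6 libraries. ETS1 and EGR2 reached this level in 5 libraries, ETV1 and ETV4 in 4, ETS2 in 3, ETV5, EGR3 and IER3 in 1, and ELK3 in none. A peak of any rank was present in all 6 libraries at 7 of the 10 genes, and the exceptions were ELK3, EGR3 and IER3.

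**Figure D1:**
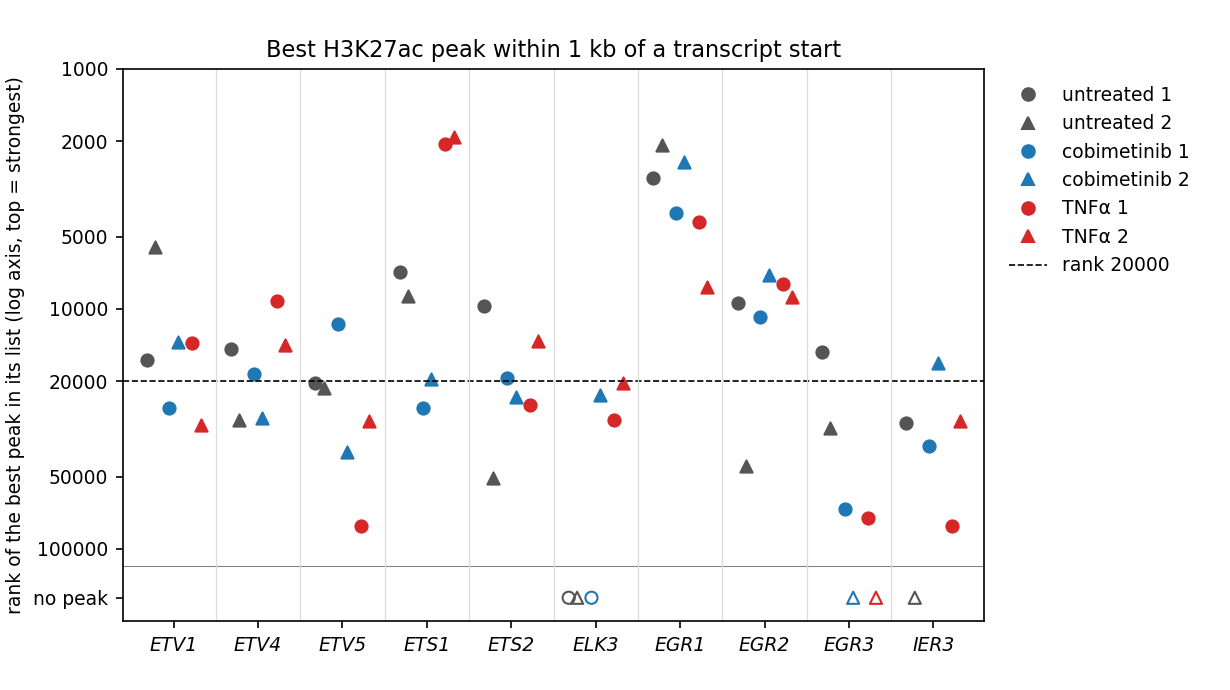
Rank of the best H3K27ac peak within 1 kb of any transcript start of each gene, on a log axis with the strongest peak of a list at the top. Each point is 1 library, open points at the bottom have no peak, and the dashed line is rank 20000. The ETS1 points are in 3 separate bands, with TNFα at 1914 and 2058.5, untreated at 7004 and 8823, and cobimetinib at 19677.5 and 25898.

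ETS1 had the clearest order of conditions. Its best promoter peak ranked 7004 and 8823 without treatment, 25898 and 19677.5 with cobimetinib, and 2058.5 and 1914 with TNFα. The 3 conditions did not overlap, with TNFα nearest the top of its lists and cobimetinib farthest from it. The scores were 159 and 54 without treatment, 53 and 59 with cobimetinib, and 269 and 212 with TNFα, so on the score scale untreated replicate 2 was level with the cobimetinib libraries. The peak covered 1365 and 693 bp, 540 and 1429 bp, and 1495 and 1955 bp in the same order of conditions, and on this measure cobimetinib and untreated overlapped. The peak was not at the start of the MANE transcript, the reference transcript of the gene, at chr11:128587558, where no library had a peak within 1 kb. It was at a group of 3 starts between chr11:128522201 and chr11:128522310, those of shorter ETS1 transcripts within the gene.

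Differences were tested on the log2 scale of rank, signed so that a positive value means nearer the top of the list. The test was limma over all 10780 promoters that had a peak among the 20000 strongest in at least 2 libraries, with Benjamini-Hochberg adjustment. At ETS1 the difference of TNFα from cobimetinib was 3.51 (95% confidence interval 1.86 to 5.15), with an unadjusted p of 0.000414 and an adjusted p of 0.379. The difference of cobimetinib from untreated was -1.52 (-3.17 to 0.123, adjusted p = 0.594) and that of TNFα from untreated was 1.99 (0.341 to 3.63, adjusted p = 0.964). None passed the threshold of 0.05. Leaving out untreated replicate 1 or untreated replicate 2 gave fits identical to each other for TNFα against cobimetinib, again with a difference of 3.51. The 1 untreated library that is left adds no spread, so these are not separate checks. Their estimate of spread was smaller than that of the fit with all 6 libraries.

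ETS2, the closest relative of ETS1, did not show this order at its promoter. Its ranks were 9764.5 and 50469.5 without treatment, 19430 and 23257 with cobimetinib, and 25101.5 and 13643 with TNFα. The untreated replicates lay on either side of all 4 treated libraries. The fitted difference of TNFα from cobimetinib was 0.20 (-1.72 to 2.12).

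ELK3 had the weakest promoter of the ETS genes. No peak was within 1 kb of its starts in either untreated library or in cobimetinib replicate 1. The peaks of the other libraries ranked 22772 in cobimetinib replicate 2 and 29053 and 20310 with TNFα, so both TNFα libraries but 1 of the 2 cobimetinib libraries had one. ELK3 did not enter the promoter test.

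The PEA3 group, whose transcription is a common readout of ERK activity, had promoter peaks of middle rank with wide replicate spread. ETV1 ranked 16287.5 and 5496.5 without treatment, 25898 and 13770 with cobimetinib, and 13926 and 30493.5 with TNFα, with overlap between all pairs of conditions. ETV4 ranked 14754 and 29057.5, 18655 and 28413, and 9302 and 14208, and both TNFα libraries were nearer the top than the other 4. The ETV4 peak of rank 18655 in cobimetinib replicate 1 lies at an isolated downstream start, and at the cluster of 9 starts that includes the MANE start that library ranked 24602.5. That cluster is shared with starts of DHX8, so the peak cannot be assigned to either gene. ETV5 ranked 20457.5 and 21374.5, 11530 and 39532, and 80308 and 29394. Its 6 best peaks were at 3 different groups of starts, and at the group holding the MANE start the ranks ran from 19810.5 to 123447.

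Of the EGR genes, EGR1 had ranks of 2840 and 2069.5 without treatment, 3989.5 and 2450 with cobimetinib, and 4350.5 and 8077.5 with TNFα. The order of the conditions was unlike that of ETS1, since both TNFα libraries were farthest from the top. The fitted difference of TNFα from untreated was -1.29 (-2.99 to 0.413, adjusted p = 0.964; -0.84 without TNFα replicate 2) and that of cobimetinib from untreated was -0.37 (-2.07 to 1.34, adjusted p = 0.904). The lowest of the 6 ranks, 8077.5, was that of TNFα replicate 2, and after 24 hours of MEK1 inhibition both libraries still had the peak at rank 3989.5 or better.

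EGR2 ranked 9412.5 and 45067.5, 10803 and 7208.5, and 7912.5 and 8881.5 in the same order of conditions. The 4 treated libraries were close together and the spread came from untreated replicate 2. The fitted difference of TNFα from untreated was 1.30, and it was 0.17 without that library and 2.43 without untreated replicate 1. EGR3 ranked 15100 and 31498 without treatment, 68354.5 and no peak with cobimetinib, and 74761.5 and no peak with TNFα. Both untreated libraries were nearer the top than all 4 treated ones, but 1 library alone reached the 20000 strongest, and EGR3 was not tested. IER3 ranked 29875.5 and no peak, 37131.5 and 16780, and 80308 and 29394, with no order of conditions, and was not tested either.

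Over the promoters, 6 of the 10 genes could be tested (ETV1, ETV4, ETS1, ETS2, EGR1 and EGR2), and these are not all members of the set. By limma, 0 of the 6 were called in any of the 3 contrasts, where 0% of the 10780 promoters were called in cobimetinib against untreated, 0% in TNFα against untreated and 0% in TNFα against cobimetinib. At an unadjusted p under 0.05 the counts over all promoters were 894, 362 and 691, and over the 6 genes they were 0, 1 and 1, both times ETS1. The median difference of the 6 genes was -0.26, 0.56 and 0.14 on the log2 scale, beside 0.35, 0.14 and -0.22 over all promoters tested. Without untreated replicate 2, the medians against untreated were -0.43 for cobimetinib and -0.086 for TNFα. Over all promoters they were then -0.12 and -0.34, so the signs of several medians depended on that library.

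The libraries of 2 conditions can also be compared by whether their ranks overlap. Both cobimetinib libraries were nearer the top than both untreated libraries at 0 of the 6 genes, against 22.7% of all promoters tested, and the reverse held at 1 gene, ETS1, against 13.1%. Both TNFα libraries were nearer the top than both untreated libraries at ETV4, ETS1 and EGR2, against 13.3%, and the reverse held at EGR1, against 15.4%. Both TNFα libraries were nearer the top than both cobimetinib libraries at ETV4 and ETS1, against 16.0%, and the reverse held at EGR1, against 29.4%. With untreated replicate 1 alone as the untreated library, it was nearer the top than both cobimetinib libraries at 3 of the 6 genes (39.8% of all promoters) and than both TNFα libraries at 2 (49.4%), with the reverse at 0 (30.2%) and 3 (19.5%). With 2 libraries against 2, an exact two-sided permutation test of a single value cannot give a p under 1 in 3.

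Widths gave no call. The total length of the peaks at a promoter was compared on the log2 scale after each library was centered on its median, and limma called 0 of the 6 genes in each contrast, beside 0%, 0% and 0% of all promoters. At an unadjusted p under 0.05 there were 419, 395 and 477 promoters, and 1, 0 and 0 of the 6 genes. The 1 gene was ETV4, whose peaks covered 3868 and 1225 bp without treatment, 1127 and 1408 bp with cobimetinib, and 2721 and 1263 bp with TNFα. The cobimetinib difference was -1.07 (-2.01 to -0.124, adjusted p = 0.859), and the widest value was that of untreated replicate 1 alone.

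The neighborhoods were examined next, and each contains the promoter of its gene. The 20000 strongest peaks of each library, pooled and merged within 100 bp, gave 38598 regions, of which 54 lay within 50 kb of a start of the 10 genes. IER3 had 10 of them, ETS1 8, ETS2 7, ETV1, ETV4 and ELK3 6 each, EGR3 5, EGR2 3, ETV5 2 and EGR1 1. EGR1 thus had its promoter and no other region, whereas ELK3, with no promoter peak among the 20000 strongest, had regions only inside the gene. All 6 libraries held 14 of the 54 regions, and 19 were held by 1 library, beside 7931 and 15668 of all 38598 regions.

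A region entered the test if at least 2 libraries held it, which left 35 of the 54. Of these, 7 were at a start of one of the 10 genes, 6 were at a start of another gene only (DHX8, ADO, BIN3, TUBB or MDC1), 11 were in introns and 11 were intergenic. The regions near IER3, EGR2, EGR3 and ETV4 therefore include promoters of neighbors, and no region was assigned to a target gene by these data.

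**Figure D2:**
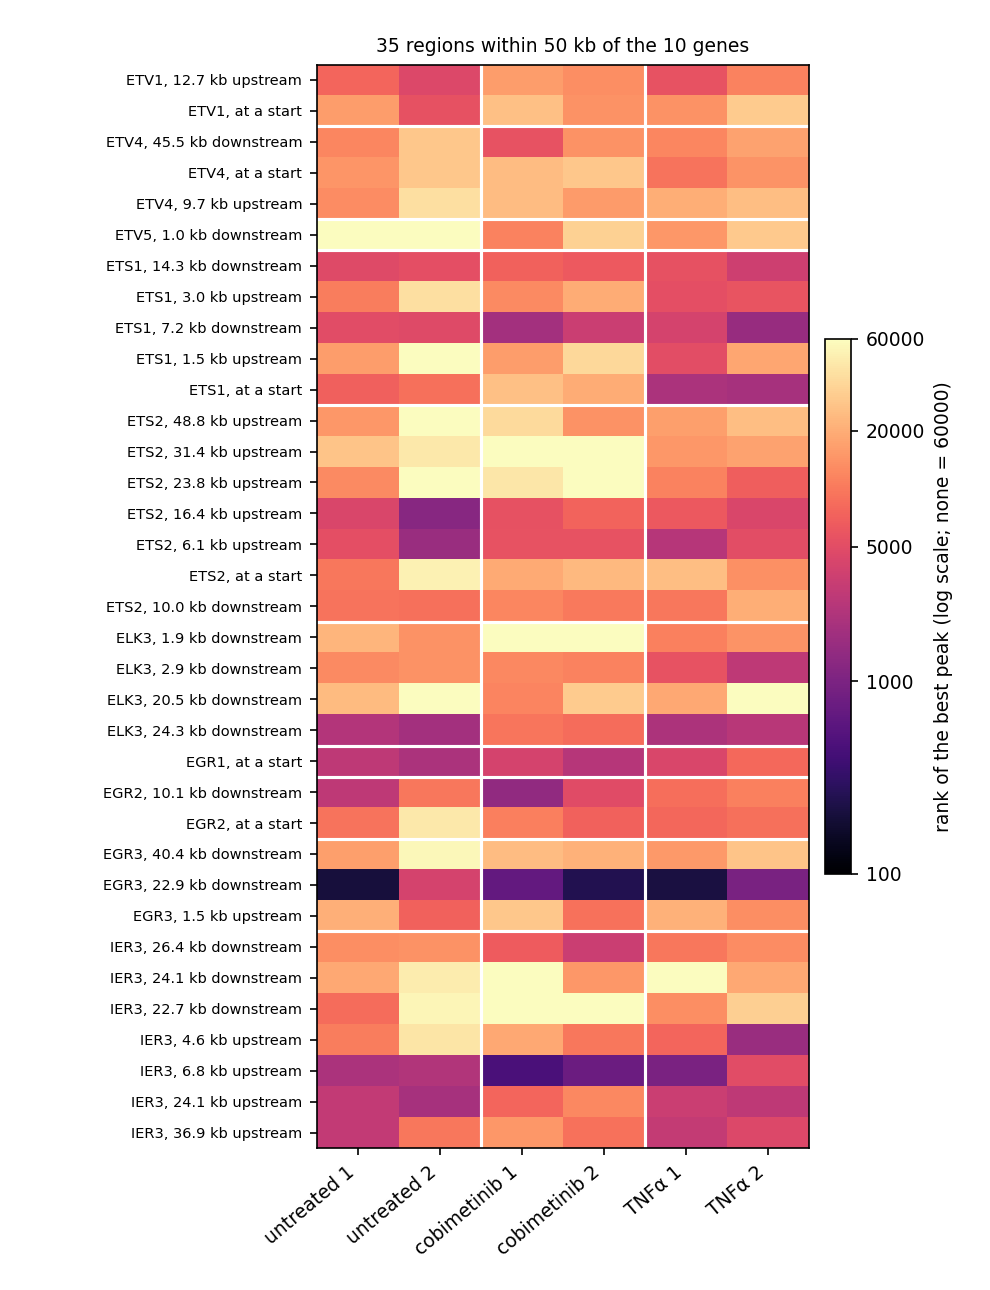
Rank of the best peak in each of the 35 tested regions (rows, with the distance to the nearest start of the named gene) in each library (columns), on a log color scale in which dark is the top of the list and a rank over 60000 or no peak is the lightest color. The row ETS1 at a start is dark with TNFα and pale with cobimetinib, and the last ELK3 row is pale in the cobimetinib columns alone.

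By limma over 22930 regions, 0 of the 35 were called in cobimetinib against untreated, 0 in TNFα against untreated and 0 in TNFα against cobimetinib. Over all regions 0%, 0% and 0.135% were called, the last being 31 regions. At an unadjusted p under 0.05 there were 2904, 2004 and 3836 of all regions, and 4, 4 and 7 of the 35. These were 9 different regions, near ETS1, ETS2, ELK3 and IER3. The rule for naming regions gave the ETS1 start region and the ELK3 region farther into the gene, and the other 7, as well as the regions named below that are neither at a start nor the strongest distal region of their gene, were singled out after their values were seen.

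The ETS1 start region, chr11:128521926-128523880, has the ranks given for the ETS1 promoter. In the test over regions its difference of TNFα from cobimetinib was again 3.51 (2.02 to 5.00), with an unadjusted p of 0.000459 and an adjusted p of 0.0705, and over the alternatives tried the adjusted p ran from 0.00416 to 0.702. Leaving out untreated replicate 1 or untreated replicate 2 gave fits identical to each other for TNFα against cobimetinib, so these are not separate checks. The difference was again 3.51, but the estimate of spread was smaller than with all 6 libraries. The ETS1 start region did not pass the threshold without any 1 of the 4 treated libraries. The difference of cobimetinib from untreated was -1.52 (adjusted p = 0.390) and that of TNFα from untreated was 1.99 (adjusted p = 0.465).

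The other ETS1 regions did not all follow the start region. The intronic region chr11:128466903-128468665 ranked 10439.5 and 39474.5 without treatment, 12734 and 19677.5 with cobimetinib, and 5187 and 5775.5 with TNFα. The TNFα libraries were again nearest the top, and the difference from untreated was 1.89 (adjusted p = 0.556), which became 0.93 without untreated replicate 2 and 2.85 without untreated replicate 1. The strongest distal region of the gene, chr11:128496116-128498213 in an intron, ranked 4962.5 and 4767, 1817.5 and 3353, and 4002.5 and 1539, so all 4 treated libraries were nearer the top than the untreated ones and cobimetinib and TNFα overlapped. The intergenic region chr11:128447824-128449625 was held by all 6 libraries at ranks between 3503 and 7348.5.

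**Figure D3:**
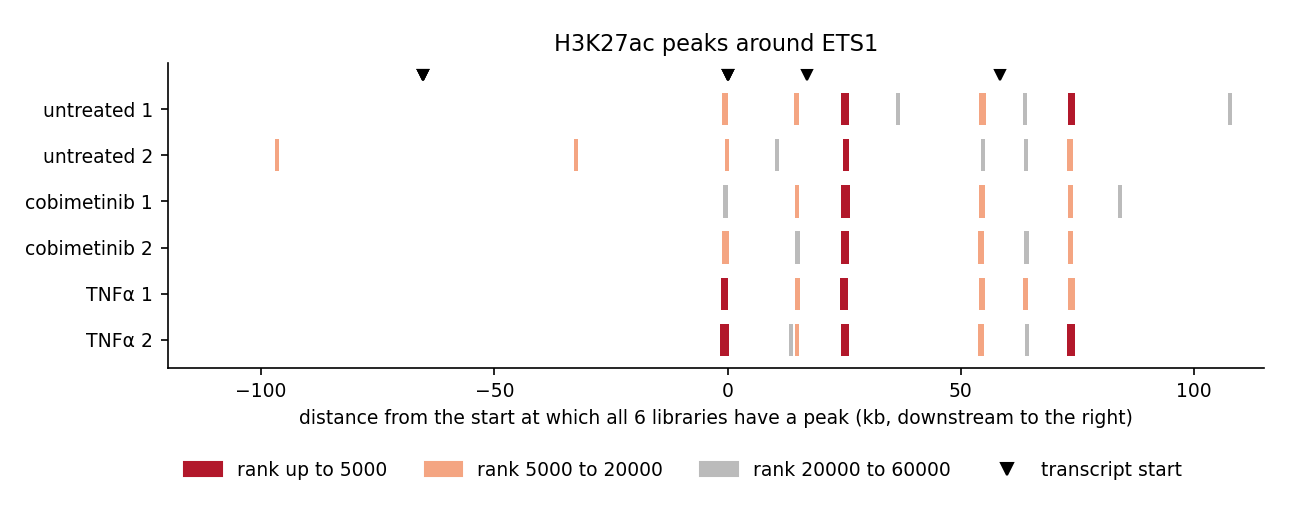
H3K27ac peaks around ETS1 in each library, by distance in kb from the start at which all 6 libraries have a peak, with downstream to the right and triangles at annotated starts. Color gives the rank of the peak, and peaks ranked beyond 60000 are left out (very narrow peaks are drawn at a minimum width). At distance 0 the peak is in the top class in the TNFα libraries alone, and the upstream group of starts has no peak in any library.

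ELK3 showed its differences inside the gene. The region chr12:96218922-96220543, in an intron 24308 bp from the nearest start, ranked 2360 and 1821 without treatment, 9502 and 8460 with cobimetinib, and 2131 and 2523 with TNFα. The cobimetinib libraries stood apart, and untreated and TNFα overlapped. The difference of cobimetinib from untreated was -2.11 (-3.60 to -0.625, adjusted p = 0.313) and that of TNFα from cobimetinib was 1.95 (0.463 to 3.44, adjusted p = 0.192).

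Closer to the ELK3 start, chr12:96196513-96197423 ranked 22364 and 13968 without treatment, 61357 and no peak with cobimetinib, and 11020 and 14208 with TNFα. Cobimetinib replicate 2 had no peak there, whereas the low-ranked peak of cobimetinib replicate 1 covered 596 bp, beside 639 bp in untreated replicate 1 and 545 bp in TNFα replicate 1. The difference of TNFα from cobimetinib was 2.26 (0.740 to 3.78, adjusted p = 0.164). The adjoining region chr12:96197547-96199644 behaved otherwise. It ranked 12666 and 13968, 12310 and 11496.5, and 5622.5 and 2782.5, so that untreated and cobimetinib were level and TNFα was nearer the top, with a difference of TNFα from untreated of 1.75 (adjusted p = 0.525).

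Upstream of ETS2, the intergenic region chr21:38779773-38781398 ranked 12516 and no peak without treatment, 43559.5 and no peak with cobimetinib, and 11295 and 6899.5 with TNFα. The TNFα libraries were nearest the top and the untreated replicates disagreed. The difference of TNFα from cobimetinib was 2.53 (0.595 to 4.47, adjusted p = 0.193). The region chr21:38773046-38773820 ranked 27497 and 45067.5 without treatment, had no peak in either cobimetinib library, and ranked 14847 and 17215 with TNFα. Its difference of TNFα from cobimetinib was 1.91 (0.390 to 3.43, adjusted p = 0.204). Only the TNFα libraries had it among their 20000 strongest peaks, so it entered the test through the condition in which it was high.

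The strongest ETS2 regions were nearer the gene and had another order. The region chr21:38797474-38799114 ranked 5261 and 1578.5 without treatment, 5657.5 and 5690 with cobimetinib, and 2477.5 and 5183 with TNFα, and cobimetinib was lowest by a small margin. The region chr21:38786715-38788749 ranked 4293.5 and 1212.5, 5529 and 7479.5, and 6291 and 4346, with both untreated libraries nearer the top than all treated ones.

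**Figure D4:**
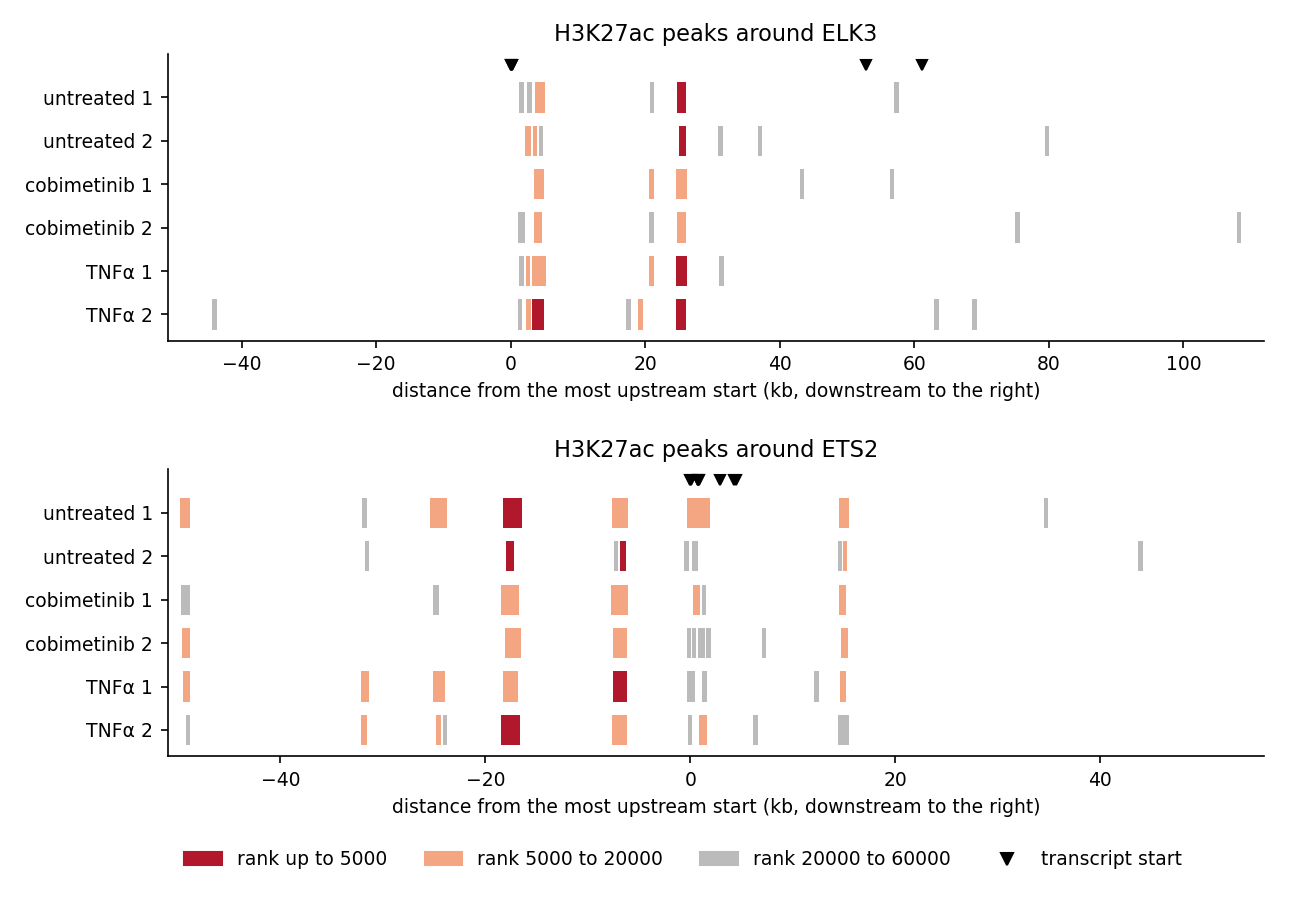
H3K27ac peaks around ELK3 and ETS2 in each library, by distance in kb from the most upstream start, drawn as for ETS1. The ELK3 peak near 25 kb is in the top class except with cobimetinib, and the ETS2 peaks 31363 and 23785 bp upstream are among the 20000 strongest in both TNFα libraries and in neither cobimetinib library.

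Regions upstream of IER3 moved in both directions. The intergenic region chr6:30768612-30770944, 24064 bp upstream, ranked 2989.5 and 1936.5 without treatment, 7706.5 and 12311.5 with cobimetinib, and 3364 and 2821 with TNFα. As at the ELK3 intron, the cobimetinib libraries stood apart, and their difference from untreated was -2.02 (-3.57 to -0.467, adjusted p = 0.334). The region chr6:30751354-30753268, the strongest distal region of IER3, ranked 2102.5 and 2320.5, 455 and 759.5, and 973.5 and 4976.5, so that here the cobimetinib libraries were nearest the top, with a difference from untreated of 1.91 (-0.0489 to 3.87, adjusted p = 0.403). The region chr6:30749146-30750667 ranked 10537 and 42366, 18655 and 9846.5, and 7724.5 and 1571, and both TNFα libraries were nearer the top than the other 4.

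The strongest distal region of ETV1, chr7:13919223-13921059 in an intron, ranked 7729 and 4526.5 without treatment, 16100 and 13085 with cobimetinib, and 5682.5 and 11465 with TNFα. Cobimetinib lay below the other 4 libraries, with a difference from untreated of -1.30 (-2.92 to 0.324, adjusted p = 0.474). Downstream of ETV4, the strongest distal region, chr17:43483252-43484944 at a start of DHX8, ranked 11941 and 29057.5, 5593.5 and 13985.5, and 11907 and 17215. The untreated replicates lay far apart, as did the cobimetinib replicates. The difference of cobimetinib from untreated was 1.08 (-0.705 to 2.85, adjusted p = 0.587), with values from 0.41 to 1.74 when each replicate was left out. The ETV5 region chr3:186103790-186104502, which lies within 1 kb of an internal start, had no peak in untreated replicate 1 and rank 123447 in replicate 2, against 11530 and 32216 with cobimetinib and 14847 and 29394 with TNFα. Both treatments were nearer the top than untreated there, by 1.64 with cobimetinib and 1.52 with TNFα (adjusted p = 0.412 and 0.620). The region entered the test through replicate 1 of each treatment alone, and both untreated values were at the cap of 60000. Its selection therefore favored the treated libraries. The cobimetinib difference was 0.90 without cobimetinib replicate 1 and 2.38 without replicate 2. The region downstream of EGR2 at the ADO promoter, chr10:62803985-62805945, ranked 2807 and 9918.5, 1393.5 and 4880.5, and 8593.5 and 11084.5, with a difference of TNFα from cobimetinib of -1.90 (adjusted p = 0.324), which became -0.9998 without cobimetinib replicate 1 and -2.81 without cobimetinib replicate 2.

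Near EGR3 the strongest region was the BIN3 promoter, chr8:22667973-22669371, at ranks of 203 and 3943, 684.5 and 249, and 214.5 and 968.5. The difference of cobimetinib from untreated was 1.12 there and -1.02 without untreated replicate 2, so its sign was that library's. The region at the EGR3 start itself, chr8:22693473-22693825, was held by 1 library and not tested. It ranked 15100 and 31498 without treatment, 68354.5 and no peak with cobimetinib, and had no peak with TNFα, so both untreated libraries were nearer the top than all treated ones. The nearest tested region, chr8:22694932-22695892, ranked 20987 and 7276, 28678 and 8982.5, and 21200.5 and 13319, and there the conditions overlapped.

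Counted over the 35 regions, both untreated libraries were nearer the top than both cobimetinib libraries at 11, against 15.0% of all regions tested, and the reverse held at 5, against 24.9%. Both TNFα libraries were nearer the top than both untreated libraries at 11, against 22.7%, and the reverse held at 3, against 12.0%. Both TNFα libraries were nearer the top than both cobimetinib libraries at 15, against 26.9%, and the reverse held at 4, against 27.5%. With untreated replicate 1 alone, it was nearer the top than both cobimetinib libraries at 19 regions (40.1% of all regions) and than both TNFα libraries at 10 (39.7%), with the reverse at 5 (32.2%) and 13 (30.3%). The 15 regions with TNFα above cobimetinib were near ETV1, ETV4, ETS1, ETS2, ELK3 and IER3. The ETS2 region chr21:38773046-38773820, counted among them, entered the test through its TNFα libraries alone. The ETS2 region chr21:38779773-38781398, the ELK3 region chr12:96196513-96197423 and the IER3 region chr6:30720657-30721805, also among them, were held by no cobimetinib library. The ETV5 region chr3:186103790-186104502, counted where a treatment was above untreated, entered through 1 library of each treatment. Several of the 35 lie close together near 1 gene and share the same libraries, so they are not independent of each other.

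**Figure D5:**
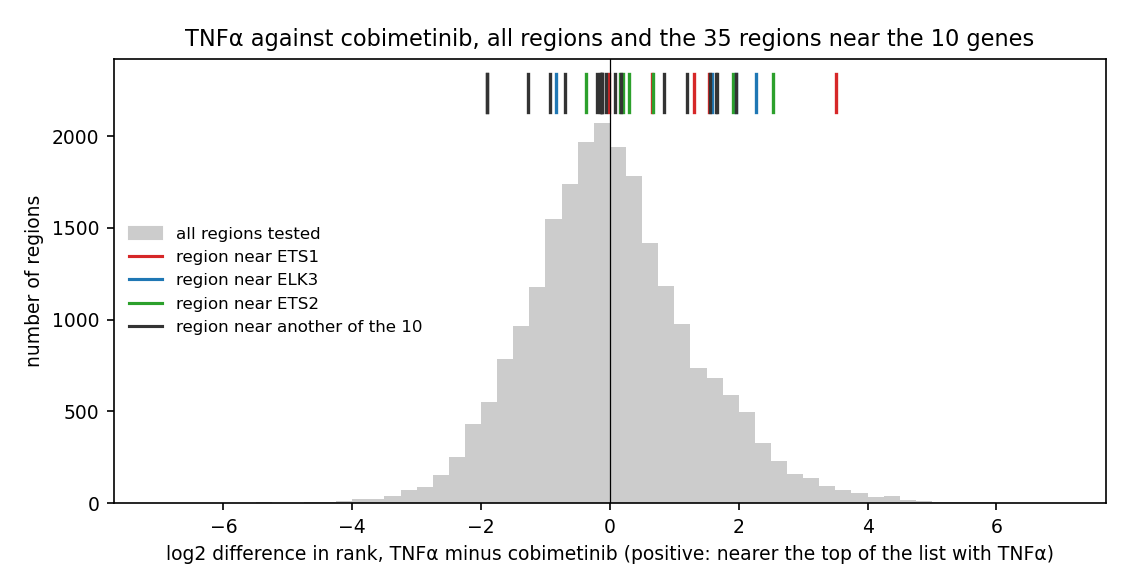
Log2 difference in rank of TNFα from cobimetinib over all 22930 regions tested (gray bars, number of regions) and at the 35 regions near the 10 genes (ticks at the top, colored for ETS1, ELK3 and ETS2). The tick farthest to the right is the ETS1 start region at 3.51, and 11 of the 35 ticks lie above 1.5. Some of the 11 regions entered the test with no cobimetinib library holding them.

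The median difference over the 35 regions was -0.0026 for cobimetinib from untreated, 0.26 for TNFα from untreated and 0.20 for TNFα from cobimetinib, beside 0.32, 0.31 and -0.0552 over all regions. Without untreated replicate 2, the medians against untreated were -0.57 for cobimetinib and -0.043 for TNFα. Over all regions they were then -0.0999 and -0.121, so the positive medians against untreated depended on that library. For TNFα against cobimetinib, 21 of the 35 were above 0 (60% against 48.0% of all regions), 11 were above 1.5 (31.4% against 13.0%) and 2 were below -1.5 (5.71% against 10.7%). The limit of 1.5 was not among the planned settings. All 11 regions above it were near ETS1, ETS2, ELK3 or IER3, so they are not independent of each other. Some of them entered the test with no cobimetinib library holding them, so their selection favored TNFα above cobimetinib. They were the ETS2 regions chr21:38773046-38773820 and chr21:38779773-38781398, the ELK3 region chr12:96196513-96197423 and the IER3 region chr6:30720657-30721805. In the central 500 bp, 17 of the 35 held an AP1 word, 3 a CArG box, 1 the ETS word, 1 the EGR word and 0 the CRE word, where 32.1%, 2.24%, 3.46%, 0.772% and 1.61% of all regions did. The EGR1 promoter region held no AP1 word over its whole length.

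The other genes of the pathways were counted by list, and by limma 0 genes of any list were called in any contrast. Of 21 further ETS family genes, 12 could be tested, 9 had no promoter peak among the 20000 strongest in any library, and 6 had one in all 6 libraries. At an unadjusted p under 0.05, for TNFα against cobimetinib, 0 of the 12 were nearer the top with TNFα and 1 with cobimetinib. Of EGR4 and the EGR corepressors NAB1 and NAB2, 1 of 3 could be tested and none reached p under 0.05. Of 16 other ERK output genes, such as the DUSP phosphatases and the SPRY inhibitors, 14 could be tested, 1 was nearer the top with TNFα than with cobimetinib at p under 0.05 and 0 the reverse. Of 12 NF-κB targets 11 could be tested, of which 2 were nearer the top with TNFα than with cobimetinib at p under 0.05 and 0 the reverse, and against untreated the counts were also 2 and 0. For cobimetinib against untreated, 2 NF-κB targets were nearer the top at that p and 1 was farther from it. In this contrast the counts were 2 and 0 among the further ETS genes and 0 and 1 among the ERK output genes. Of all 10780 promoters, in either direction, 894 reached that p for cobimetinib against untreated, 362 for TNFα against untreated and 691 for TNFα against cobimetinib.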

How the data were processed

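H3K27ac CUT&RUN was measured in 6 libraries, 2 per condition. Per the study's methods and the submitters' processing notes, the authors trimmed reads with BBDuk, aligned them to hg38 with BWA 0.7.15 and called peaks with MACS2 2.1.1 in each library, without an IgG background, in paired-end and single-end mode, and merged both. The deposited score is the authors' integer MACS2 value per peak, at least 20 in every list, and it rises with sequencing depth, which is unknown. A relaxed threshold gives many weak peaks, so ranks beyond 60000 were set to 60000, as were genes or regions with no peak.

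Starts were taken from GENCODE release 44 on hg38. All chromosome names were in that reference and 0 peaks ran past a chromosome end. Values were minus log2 of rank, or log2 of width plus 100 bp, fitted over 3 groups in limma 3.58.1 (R 4.3.3) with Python 3.11.15 for the joins. Benjamini-Hochberg adjustment ran over all promoters or regions tested, with calls at 0.05, and the fit was tested on simulated data. The simulated libraries all had the same spread, so that check does not cover the wider spread of the untreated pair. The labels do not say that replicates were separate cultures, so p-values measure the spread between these libraries only.

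All 10 genes are named. Regions named are the promoter and the strongest distal region of each gene, plus others, mainly those with an unadjusted p under 0.05, chosen after the data were seen. The genes and lists were chosen with earlier results of these data known. The study's comparison of read counts was not repeated, since the lists hold no counts. Alternatives changed the cap, filter, starts, overlap, scale, score, weights, replicate block and libraries.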

Additional observations from a re-analysis of the deposited data

Results flagged for a closer look

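At 2 places the TNFα libraries and the cobimetinib libraries lay on opposite sides of both untreated libraries. The first is the ETS1 promoter, where TNFα was above and cobimetinib below untreated, and the difference between the treatments was 3.51 on the log2 scale of rank, tested directly (limma adjusted p = 0.379 over promoters). As a region, chr11:128521926-128523880, the same place differed by 3.51 with an adjusted p of 0.0705. The second is the region upstream of ETS2 at chr21:38773046-38773820, where the difference between the treatments was 1.91 with an adjusted p of 0.204. That region entered the test through its TNFα libraries alone, so its selection favored TNFα above the other conditions. Both its cobimetinib values were at the cap of 60000. Neither place passed the threshold. The share of all promoters or regions with this order was not counted, so whether 2 places is many cannot be told. With 2 libraries per condition no single library could be compared with its group.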

How the results depend on the processing

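Over the 9 counts of called members and their 117 alternatives, 109 left the count at 0. The other 8 were all for TNFα against cobimetinib. Those without untreated replicate 1 and without untreated replicate 2 are the same fit in this contrast. At promoters 1 member, ETS1, was called with the quantile-normalized score (difference 2.09, adjusted p = 0.0456) and with limma arrayWeights (adjusted p = 0.00330). Over regions 1, the ETS1 start region, was called with no filter on low values (adjusted p = 0.0326), with the 10000 highest peaks (0.0459) and with each library centered on its median (0.0249, an alternative chosen after seeing the data), and 5 with arrayWeights. Leaving out each replicate in turn gave 0 to 1 called regions, the 1 being without either untreated replicate, and 0 called promoters. With 2 libraries per group arrayWeights gives both replicates of a group the same weight (0.390 for untreated, 1.48 for cobimetinib and 1.74 for TNFα), so it lowers the part of the untreated spread in every contrast. The 5 regions with arrayWeights were the ETS1 start region, the ELK3 regions at chr12:96196513-96197423 and chr12:96218922-96220543 (adjusted p = 0.0231 and 0.0346), and the ETS2 regions at chr21:38773046-38773820 and chr21:38779773-38781398 (0.0376 and 0.0243). The first of these ETS2 regions entered the test through its TNFα libraries alone. The other ETS2 region and the ELK3 region chr12:96196513-96197423 were held by no cobimetinib library. At that ELK3 region and the first ETS2 region both cobimetinib values were at the cap.

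Counts over all features for TNFα against cobimetinib moved more. From 0 promoters they became 229 with arrayWeights, 18 with the score, 3 with the replicate block, 2 with centering and 10 without an untreated replicate, and from 31 regions they became 2947 with arrayWeights, 528 with centering, 443 without an untreated replicate, 354 with no filter, 222 with the 10000 highest peaks, 216 with the replicate block and 0 where peaks had to cover at least 50% of the region. Without untreated replicate 1, 1441 promoters were called for cobimetinib and 131 for TNFα against untreated, against 2 and 0 without replicate 2. Width calls, 0 in each contrast, became 774, 690 and 18 without untreated replicate 1, 18 in TNFα against cobimetinib without untreated replicate 2 and 16 with arrayWeights. Leaving out any treated library gave 0 calls over all promoters and regions. In the other contrasts the replicate block called 17 promoters (cobimetinib against untreated) and 6 regions (TNFα against untreated), and no other setting called over 29. Replicate numbers did not pair the libraries (correlations of same-numbered deviations from -0.0343 to 0.0998 for promoter ranks, -0.0174 to 0.142 for widths and 0.0541 to 0.136 for region ranks, so not every pair was over 0.1), and the replicate block called 0 members in every result.

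Of 542 alternative values for 42 single differences, 528 kept direction and side of the threshold and 2 reversed. The ETV1 start region chr7:13990454-13992010 went from -1.12 to 0.60 in TNFα against untreated where peaks had to cover at least 50% of the region, and the BIN3 promoter near EGR3 ranged from -1.02 to 3.26 when each replicate was left out. The cause was not tested. Without counts or depth in the lists, a missing peak cannot be told from one below the caller's threshold.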
